A study of Mus musculus with 30 samples.

Results

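The genes described here are 7 members of the tumour necrosis factor (TNF) and NF-kB circuit, namely Tnf, Tnfrsf1a, Tnfrsf1b, Nfkb1, Nfkbia, Nfkbiz and Tnfaip3. They were chosen by name, as 7 of the 23013 gene rows of a table covering 30 Seq-Well libraries from 8 organs, and all 7 rows were found by Entrez identifier. Seq-Well captures single cells in microwells and tags each transcript with a unique molecular identifier (UMI). Healthy DBA1/J males H3, H4, H6 and H7 had an arthritis score of 0 and, by the study's methods, received saline injections. In collagen-induced arthritis (CIA), DBA1/J males received 100 µg of bovine type II collagen in complete Freund's adjuvant and a boost on day 20, with arthritis scores of 8 for mice S1 and S2, of 3 to 4 for S6 and of 3 for S7. The CIA mice thus differed from the healthy mice in collagen and adjuvant together. Dissected organs had been frozen and thawed, whereas the study's methods describe no such step for blood cells, so organ and handling cannot be told apart between blood and lymph node. Blood was sampled as density-gradient mononuclear cells from 4 healthy and 3 CIA mice (S2, S6 and S7), and draining lymph nodes from 4 healthy and 3 CIA mice (S1, S2 and S7). The joint was sampled from H3 and S1, and lung, muscle, skin, spleen and thymus from H6 and S1, so these 6 organs have 1 mouse per state. Library titles carry CIA or 2CIA, which is not explained. A further mark, a (2) after it, is also unexplained and stands in 10 of the 30 titles, those of every lung, muscle, skin and spleen library, of healthy joint and of the 2CIA joint library of S1. No blood, lymph node or thymus title carries it, so it does not separate the states in any organ, but it does separate the S1 joint libraries. In the last 5 organs the CIA or 2CIA suffix and the disease state cannot be told apart. Mice were identified by the state and number in the title. H4, S1 and S7 occur with both suffixes and were each taken as 1 mouse, which the labels do not state.

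TNF is a cytokine of activated myeloid and lymphoid cells that binds a pair of receptors, and both lead to the activation of NF-kB transcription factors. IkB proteins hold NF-kB in the cytoplasm, and kinases that mark IkB for degradation release it. NF-kB then switches on genes for its own inhibitors, so that the signal ends. In inflammatory arthritis TNF is a central cytokine and a drug target.

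The 7 genes lie on 7 chromosomes of GRCm38.p6. Tnf, the ligand, is at chr17:35199367-35202007 (Entrez 21926). Tnfrsf1a, which encodes the broadly used TNF receptor 1, is at chr6:125349723-125362483 (21937), and Tnfrsf1b, which encodes TNF receptor 2, is at chr4:145212368-145246870 (21938). Nfkb1, which encodes the p105 precursor of the NF-kB subunit p50, is at chr3:135584655-135691969 (18033). Nfkbia, which encodes the inhibitor IkBα, is at chr12:55489409-55492647 (18035). Nfkbiz, which encodes the nuclear cofactor IkBζ, is at chr16:55811375-55838954 (80859), and Tnfaip3, which encodes the ubiquitin-editing brake A20, is at chr10:19000910-19015410 (21929).

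Nfkbia and Tnfaip3 are classical NF-kB targets, and the stretch before each start is shown because these are the feedback genes on which the results turn. RefSeq promoter windows of GRCm38.p6, 250 bases before to 50 bases after a start, were present for 5 of the 7 genes, and Nfkb1 and Nfkbiz had none. The NF-kB consensus of 10 bases was searched on both strands. Capitals mark its matches in the 250 bases before the start, given 5′ to 3′ on the gene's strand, which is the minus strand for both genes.
Nfkbia, chr12:55492648-55492897: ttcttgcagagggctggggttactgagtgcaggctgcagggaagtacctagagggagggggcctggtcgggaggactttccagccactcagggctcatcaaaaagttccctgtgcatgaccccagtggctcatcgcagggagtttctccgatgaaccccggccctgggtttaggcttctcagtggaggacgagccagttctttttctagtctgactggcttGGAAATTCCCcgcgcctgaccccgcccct
Tnfaip3, chr10:19015411-19015660: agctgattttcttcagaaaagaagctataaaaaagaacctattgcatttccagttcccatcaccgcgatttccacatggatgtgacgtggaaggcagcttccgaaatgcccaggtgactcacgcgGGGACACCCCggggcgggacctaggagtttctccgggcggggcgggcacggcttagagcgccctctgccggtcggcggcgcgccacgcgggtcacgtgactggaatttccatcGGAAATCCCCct
The match of Nfkbia began 29 bases before the start, and those of Tnfaip3 began 125 and 12 bases before it. The windows of Tnf, Tnfrsf1a and Tnfrsf1b and a downstream window of Tnfaip3 had no match, and 4.53% of the 32544 promoter windows of this length had at least 1. A match is a stretch of letters and not a shown binding site.

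Levels are given as units per 1000000 library units (UPM), a gene's share of all values of a library. A unit is 1 UMI in a smoothed sum, since each barcode's deposited values had been added to those of its nearest neighbours within the library. The same molecule can therefore enter several barcodes, and no counting interval was derived. The libraries held 27 to 934 barcodes and 217494 to 7886790 units. In 19 libraries 5.25% to 21.3% of the genes above 0 never exceeded 1 in a barcode, against 37.1% to 58.1% in the other 11. Rare genes are therefore listed unevenly, and a gene at 0 is only said to be listed at 0. Every lymph node library was among the 19, at 12.6% to 20.25%. Among the 11 were the blood libraries of H3, S2 and H6 and the CIA-suffix one of H4, at 47.65% to 58.1%. In bulk sums, fewer cells of a type and less RNA per cell cannot be told apart. The organ labels were checked against marker sums. Thymocyte markers stood at 1234 and 1915 UPM in the thymus libraries and keratinocyte markers at 1256 and 2084 UPM in skin. The healthy muscle library had a skeletal muscle marker sum of 69.3 UPM with 3 of 6 markers above 0, against 4635 UPM with 6 of 6 in the CIA muscle library. Lung epithelium markers stood at 22062 UPM in healthy and 2372 UPM in CIA lung.

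The level of each gene across organs was described first. Nfkbia was the only one of the 7 listed above 0 in all 30 libraries. Nfkbiz was above 0 in 29 libraries, Nfkb1 in 27, Tnfaip3 in 25, Tnf in 21, Tnfrsf1a in 15 and Tnfrsf1b in 14. Libraries of an organ and state were added up into 16 groups, most with 1 mouse, and the order of groups is therefore a description.

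**Figure D1:**
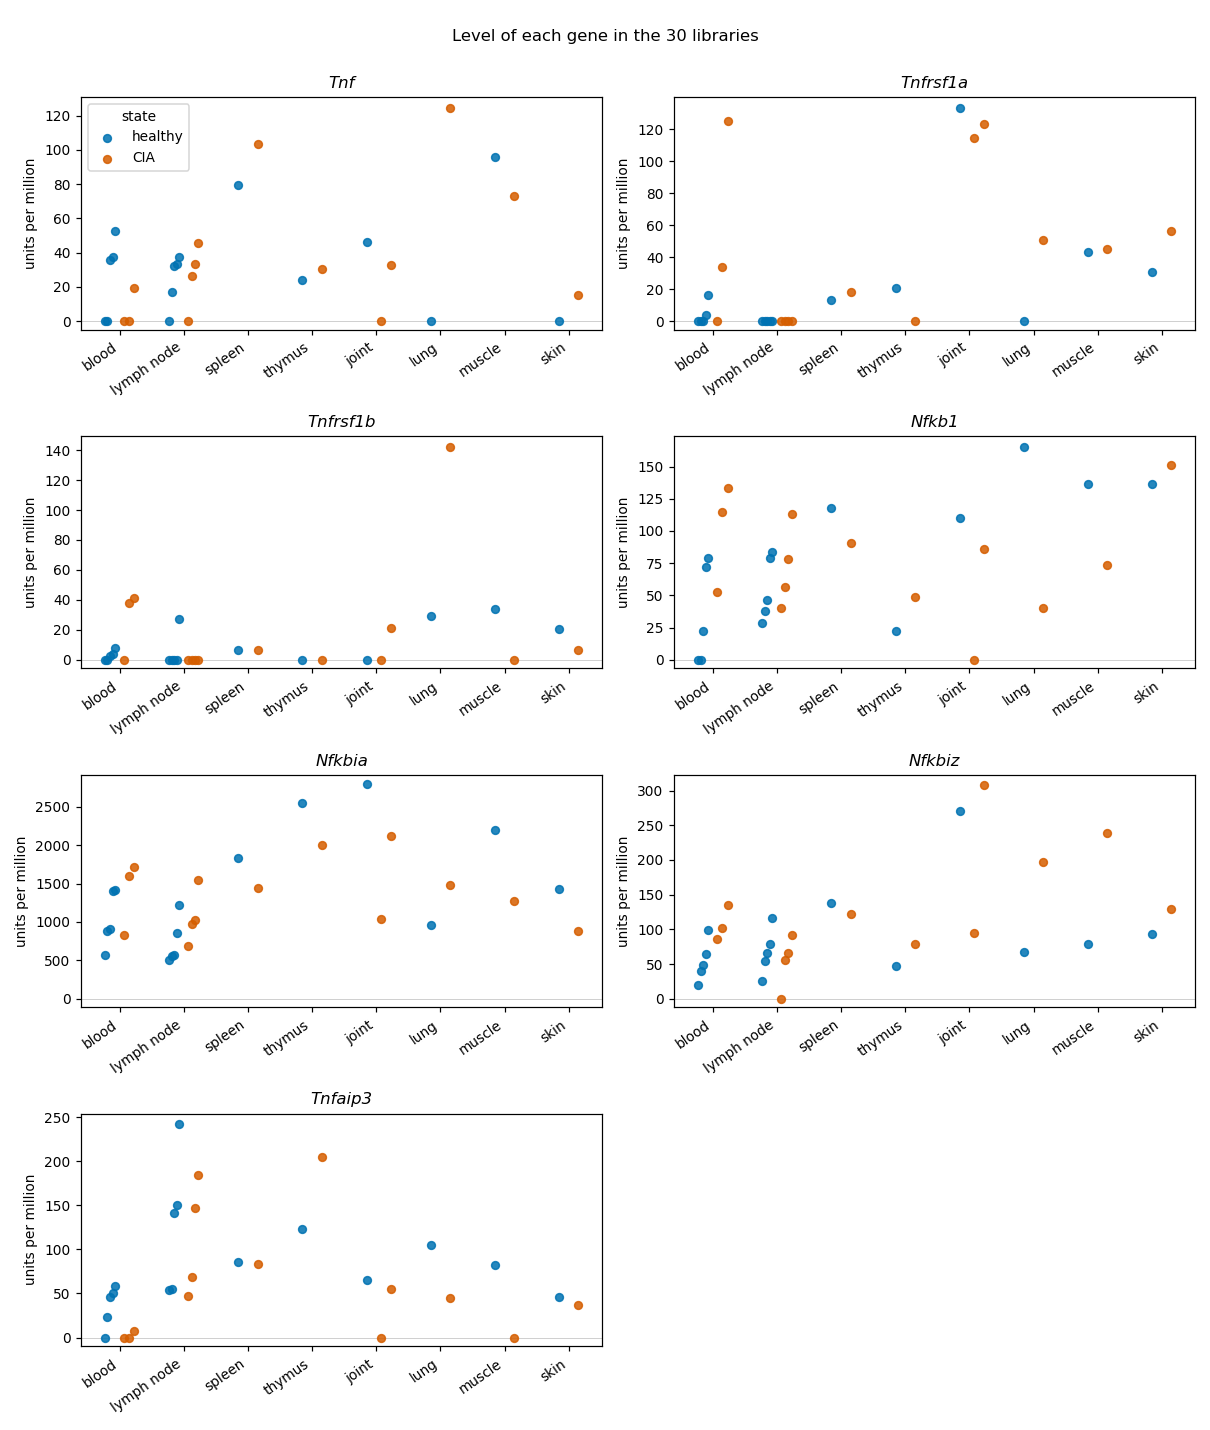
Level of each of the 7 genes in UPM (y axis) in every library, by organ (x axis), with 1 point per library and colour for healthy or CIA. Tnfrsf1a reaches 133 UPM in healthy joint and lies at 0 in each of the 9 lymph node libraries, and Nfkbiz is highest in joint.

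Tnf was highest in CIA lung (125 UPM), followed by CIA spleen (103 UPM), healthy muscle (95.7 UPM), healthy spleen (79.2 UPM) and CIA muscle (73.3 UPM). It stood at 46.3 UPM in healthy and 30.7 UPM in CIA joint, where the smaller CIA library of 70 barcodes listed it at 0 and the larger one gave 33.0 UPM. It was listed at 0 in healthy lung and healthy skin. The blood and lymph node groups lay between 12.5 and 36.0 UPM. The ligand was thus not highest in the joint in these libraries.

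Tnfrsf1a had its highest levels in joint, with 133 UPM in healthy H3 and 115 UPM in CIA S1, and the S1 joint libraries gave 114 and 123 UPM. Skin, lung, blood and muscle of CIA mice followed at 56.4, 50.8, 48.4 and 44.9 UPM. In lymph node the gene was listed at 0 in all 9 libraries of 7 mice. Tnfrsf1b was highest in CIA lung (142 UPM), and no other group exceeded 34.2 UPM, the level in healthy muscle. It was listed at 0 in both thymus libraries, healthy joint, CIA muscle and CIA lymph node.

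Nfkb1 ranged from 22.6 UPM in healthy thymus to 165 UPM in healthy lung, with 151 UPM in CIA skin, 137 UPM in healthy muscle and 136 UPM in healthy skin. Nfkbia was highest in healthy joint (2803 UPM), healthy thymus (2552 UPM), healthy muscle (2195 UPM) and CIA joint (2041 UPM), and lowest in healthy lymph node (789 UPM). The larger CIA joint library gave 2117 UPM of Nfkbia and the smaller one 1035 UPM. Nfkbiz was highest in joint, at 293 UPM in CIA and 271 UPM in healthy, followed by CIA muscle (239 UPM) and CIA lung (197 UPM). Tnfaip3 had another order, with 205 UPM in CIA thymus, 139 UPM in healthy lymph node, 123 UPM in healthy thymus and 109 UPM in CIA lymph node. It was lowest in CIA blood (4.53 UPM) and listed at 0 in CIA muscle.

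The 7 genes did not share a single pattern over the 16 groups. The closest pair was Tnfrsf1a and Nfkbiz, with a Pearson r of 0.75 for log2(UPM + 10), and the most opposed was Tnfrsf1a and Tnfaip3, with an r of -0.54. Among 5747 genes averaging 25 UPM or more, those most like Tnfrsf1a were Cebpd (r = 0.84), Ralb (0.84) and Ier3 (0.82). Cebpd encodes an inflammatory transcription factor and Ier3 is itself an NF-kB target. Those most like Nfkbiz were Ugp2 (0.87), Gm12222 (0.85) and Fn1 (0.83), the fibronectin gene. Those most like Tnfaip3 were Leprotl1 (0.92), Arid1a (0.85) and Mir5136 (0.85). The nearest genes were Cks2 (0.88), Dnajc3 (0.81) and Pcna (0.81) for Nfkbia, Dedd2 (0.85), Cers2 (0.78) and Rab10os (0.78) for Tnf, and Arhgef12 (0.79), Gem (0.76) and Sbno2 (0.74) for Nfkb1. Tnfrsf1b had a mean of 19.5 UPM and was not compared. These correlations describe 16 groups that share mice and libraries.

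Blood and lymph node were the organs with replicate mice, and their levels were compared over 7 mice each. Of the 7 genes, Tnfaip3 alone passed the test between them. In blood it stood at 50.6 UPM in H3, 19.5 in H4, 59.0 in H6, 46.2 in H7 and 7.01 in S2, and it was listed at 0 in S6 and S7. In lymph node it stood at 142 UPM in H3, 54.4 in H4, 242 in H6, 150 in H7, 46.9 in S1, 184 in S2 and 115 in S7. The lymph node level was above the blood level in 6 of 6 mice with both organs, although the ranges of the organs overlapped. The means were 26.03 ± 25.3 UPM in blood and 133 ± 69.3 UPM in lymph node (SD, n = 7 mice each).

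Tnfaip3 was higher in lymph node by 2.01 on the log2(UPM + 10) scale (SE 0.48, adjusted p = 0.0128 by limma over all genes tested). It was 1 of 5 tested members that passed, and 13.7% of the 4858 genes tested passed in either direction, with 11.4% of the genes tested passing as higher in lymph node. The split of calls was 552 higher to 115 lower, and with median-of-ratios scaling it was 249 to 149. The median difference of all genes was 0.40, and with library totals alone it was 0.58. Without mouse S2 the difference was 1.84 and the adjusted p 0.0573. Within the 2CIA libraries alone it was 2.76 with an adjusted p of 0.0251. T cell markers moved with it: their sum over 8 markers was 202 to 1600 UPM in 8 blood libraries, with 1 to 8 markers above 0, and 1974 to 4382 UPM in 9 lymph node libraries, with 7 or 8 above 0. The erythroid sum was 35815 to 561506 UPM in blood and 95.3 to 140597 UPM in lymph node, and with the erythroid markers left out of the totals the difference was 2.07 (adjusted p = 0.0140). The part of T cell content in the difference was not tested.

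**Figure D2:**
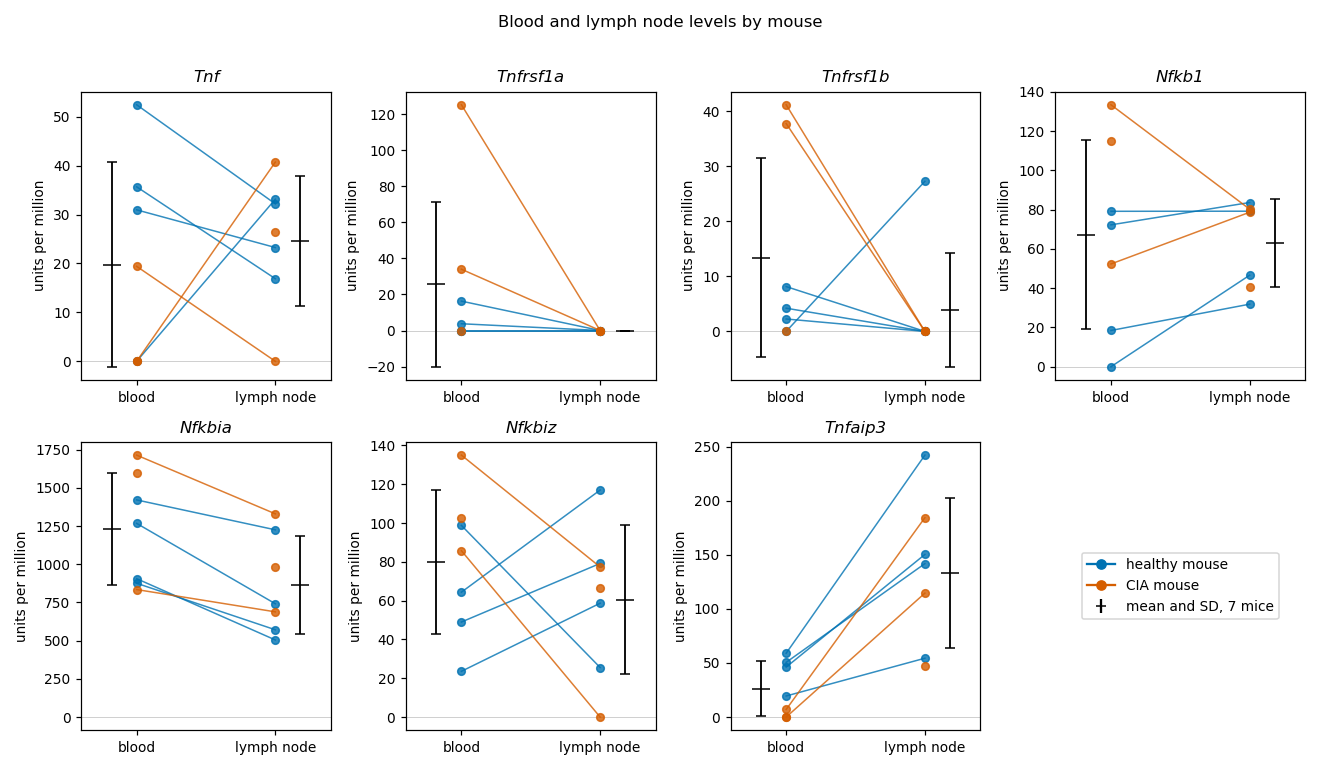
Level of each gene in UPM (y axis) in blood and lymph node (x axis), with 1 point per mouse, a line joining both organs of a mouse, and the mean and SD over 7 mice in black. Tnfaip3 rises from blood to lymph node in 6 of 6 mice, and Nfkbia is higher in blood in 6 of 6 mice without passing the test.

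Nfkbia, also an inhibitor gene, went the other way without passing the test. It was 834 to 1714 UPM in blood (mean 1231 ± 364, SD, n = 7) and 504 to 1330 UPM in lymph node (863 ± 322). The blood level was above the lymph node level in 6 of 6 mice, and the difference was -0.69 (SE 0.28, adjusted p = 0.103 by limma). It passed with median-of-ratios scaling only (-0.92, adjusted p = 0.0334). Nfkbiz differed by -0.65 (SE 0.51, adjusted p = 0.428), and by -0.11 without S2, whose lymph node library listed it at 0. The differences were 0.10 for Nfkb1 (SE 0.50, adjusted p = 0.920) and 0.18 for Tnf (SE 0.56, adjusted p = 0.870).

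The receptors lay under the filter of 25 UPM and were compared by a two-sided exact permutation test of the mean. It took the values of both organs as independent, without the pairing by mouse and without state. Of 6 mice with both organs, Tnfrsf1a was higher in blood in 4, in lymph node in 0 and tied in 2. Tnfrsf1b was higher in blood in 5 and in lymph node in 1. Tnfrsf1a was 25.6 ± 45.7 UPM in blood and listed at 0 in lymph node of every mouse (SD, n = 7 each, exact p = 0.0699). Its blood values were 125 UPM in S7, 34.0 in S2, 16.3 in H7 and 3.75 in H6, and it was listed at 0 in H3, H4 and S6. Tnfrsf1b was 13.4 ± 18.1 UPM in blood and 3.89 ± 10.3 UPM in lymph node (exact p = 0.209). In lymph node it was above 0 in 1 mouse of 7. Every lymph node library, but only part of the blood libraries, had the low share of genes never exceeding 1 in a barcode. The part of this uneven listing in the receptor zeros was not tested.

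Of 55 further genes of the circuit, 34 were tested between the organs. None passed higher in lymph node and 6 passed lower, where 2.37% of all genes tested (115 of 4858, and 149 of 4852 with median-of-ratios scaling) passed lower, with a median difference of -0.27 against 0.40 for all genes tested. Of these 6, 5 were among 14 tested classical targets. Il1b, which encodes the cytokine interleukin-1β, was 320 ± 261 UPM in blood and 5.86 ± 15.5 UPM in lymph node (difference -4.48, SE 0.53, limma adjusted p = 2.9e-05). Ccl3, which encodes a chemokine for myeloid cells, was 131 ± 93.3 UPM in blood and 18.6 ± 11.7 UPM in lymph node (-2.31, adjusted p = 0.00511). Ccl4, a related chemokine gene, was 283 ± 239 UPM and 51.5 ± 27.9 UPM (-2.24, adjusted p = 0.00906). Cxcl2, which encodes a chemokine that recruits neutrophils, was 206 ± 231 UPM and 6.02 ± 10.5 UPM (-2.93, adjusted p = 0.0155), and Tnfaip2 was 39.6 ± 55.6 UPM in blood and listed at 0 in lymph node of all 7 mice (adjusted p = 0.0390). The remaining one was Zfp36, which encodes an RNA-decay factor that limits Tnf message (286 ± 141 and 127 ± 40.5 UPM, -1.21, adjusted p = 0.0234). Il1b and Ccl3 passed under all 18 alternatives. Ccl4 kept its call under 17 of 18 and lost it without S2. Cxcl2 kept it under 15 of 18 and lost it with a pseudocount of 1 and without H4 or S2. Zfp36 kept it under 11 of 18 and lost it with no filter, with no mean-variance trend, within 2CIA libraries and without H4, H7, S2 or S7. Tnfaip2 kept it under 7 of 16 and lost it with the mouse as a replicate block, with median-of-ratios scaling, with no filter, with no trend, within 2CIA libraries and without H4, H7, S1 or S7 (highest adjusted p = 0.151). The neutrophil marker sum over 10 markers was 1363 to 73681 UPM in blood, with 3 to 10 above 0, and 0 to 3175 UPM in lymph node, with 0 to 4 above 0. A density gradient for mononuclear cells, as used for blood, is meant to leave neutrophils behind. The part of the neutrophil sum, or of the uneven listing of rare genes, in these differences was not tested.

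In blood the comparison of CIA with healthy mice asked whether the circuit differed in circulating cells. No member passed the test. Tnfaip3 was 19.5 to 59.0 UPM in 4 healthy mice (mean 43.8 ± 17.1, SD) and 0 to 7.01 UPM in 3 CIA mice (2.34 ± 4.05), so the groups did not overlap. The difference was -2.14 (SE 1.00, unadjusted p = 0.0365, adjusted p = 0.492 by limma). Of 4704 genes tested, 462 had an unadjusted p below 0.05, and the share of genes whose groups did not overlap was not counted. Leaving out a mouse gave -2.56 to -1.86 with an adjusted p of 0.0945 to 0.947, and without H6 the gene fell under the filter. Of the healthy 2CIA blood libraries, that of H4 also listed Tnfaip3 at 0 and that of H3, with 27 barcodes, gave 50.6 UPM, and all CIA blood libraries carry that suffix. The blood libraries listing it at 0, of S6, S7 and H4 (2CIA), had 5.25%, 12.8% and 15.4% of genes never exceeding 1 in a barcode. That of H7, at 21.3%, gave 46.2 UPM. The part of this listing in the Tnfaip3 difference was not tested. T cell markers summed to 202 to 288 UPM in CIA blood, with 1 to 7 of 8 above 0, and to 367 to 1600 UPM in healthy blood, with 6 to 8 above 0, also without overlap. Their part in the Tnfaip3 levels was not tested. None of 5 tested members passed, as against 0.128% of 4704 genes tested, or 6 genes, all higher in CIA.

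Tnf was listed at 0 in blood of healthy H3 and stood at 31.0 UPM in H4, 52.4 in H6 and 35.7 in H7. In CIA mice it was 19.4 UPM in S2 and listed at 0 in S6 and S7. The groups overlapped, and the difference of -1.35 (SE 1.02) did not pass (adjusted p = 0.676). Within 2CIA libraries both healthy libraries listed Tnf at 0.

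Nfkbiz was 23.6 to 98.8 UPM in healthy and 85.7 to 135 UPM in CIA blood, with a difference of 0.48 (SE 0.83, adjusted p = 0.885). Nfkb1 was 0 to 79.1 UPM in healthy and 52.3 to 133 UPM in CIA blood (0.89, SE 0.95, adjusted p = 0.776, and 0.29 without H3). Both healthy 2CIA blood libraries listed Nfkb1 at 0, and the 3 CIA libraries did not. Nfkbia was 875 to 1421 UPM in healthy and 834 to 1714 UPM in CIA blood. Its difference of -0.21 (SE 0.60, adjusted p = 0.929) changed sign to 0.27 with library totals alone. The median difference of all genes was -0.55 on the main scale and -0.10 on the totals.

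Both receptors were above 0 in 2 of 3 CIA mice, Tnfrsf1a in 2 of 4 and Tnfrsf1b in 3 of 4 healthy mice. Tnfrsf1a was 125, 34.0 and 0 UPM in S7, S2 and S6, against 0 to 16.3 UPM in healthy mice (exact permutation p = 0.286, two-sided). Tnfrsf1b was 41.2, 37.7 and 0 UPM in the same mice, against 0 to 8.14 UPM in healthy mice (exact permutation p = 0.286). With 4 against 3 mice the smallest p this test can give is 0.0571, so it could not fall below 0.05. The neutrophil marker sum followed the same libraries, with 73681 UPM in S7, 63604 in S2 and 5235 in S6, and 1363 to 5402 UPM in the 5 healthy libraries, although the gradient is meant to leave these cells behind. Monocyte markers summed to 565 to 1964 UPM in CIA and 44.3 to 326 UPM in healthy blood over 6 markers, with 3 to 6 and 1 to 5 above 0. Their part in the receptor levels was not tested.

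Of the 55 further genes, 34 were tested in blood, and none passed by limma. An unadjusted p below 0.05 was found for 5 of these 34 and for 462 of all 4704 genes tested. The median was -0.21 against -0.55 for all genes. The smallest unadjusted p belonged to Ccl2, which encodes a chemokine that recruits monocytes, at 69.2 to 263 UPM in 3 CIA mice and 0 to 10.2 UPM in 4 healthy mice (difference 3.41, SE 1.04, limma adjusted p = 0.226). Ltb, which encodes lymphotoxin β, was 188 ± 96.0 UPM in CIA and 399 ± 145 UPM in healthy blood (adjusted p = 0.455), and the chemokine gene Ccl5 differed by -1.74 (adjusted p = 0.492).

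In lymph node no member passed between CIA and healthy mice, where 0.0198% of 5060 genes, or 1 gene, passed. Tnfaip3 was 54.4 to 242 UPM in healthy and 46.9 to 184 UPM in CIA lymph node (difference -0.30, SE 0.47, limma adjusted p = 0.979). Nfkbia was 760 ± 325 UPM in 4 healthy and 999 ± 321 UPM in 3 CIA mice (SD; 0.47, SE 0.30, adjusted p = 0.963). The difference was 0.21 without S7 and 0.72 without S2. Nfkb1 was 60.3 ± 25.1 and 66.5 ± 22.5 UPM (0.19, SE 0.40, adjusted p = 0.984). Nfkbiz was 117 UPM in H3, 58.7 in H4, 25.5 in H6, 79.2 in H7, 66.3 in S1 and 77.4 in S7 and was listed at 0 in S2. Its difference was -0.81 (SE 0.65, adjusted p = 0.963), and without S2 it was 0.22. Tnf, under the filter, was 16.9 to 33.1 UPM in healthy and 0 to 40.7 UPM in CIA mice (exact permutation p = 0.800, two-sided). All these groups overlapped.

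Of the 55 further genes, 28 were tested in lymph node, and none passed by limma. An unadjusted p below 0.05 was found for 4 of these 28 and for 214 of all 5060 genes tested. The median was -0.22 against 0.09 for all genes. The lowest unadjusted p values belonged to Gadd45b, a stress-response target (112 ± 54.8 UPM in healthy and 225 ± 43.2 in CIA), the IkB kinase gene Chuk (53.2 ± 12.6 and 19.2 ± 5.23) and the phosphatase gene Dusp1 (331 ± 42.8 and 192 ± 43.2), with an adjusted p of 0.963 for each by limma.

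An interaction term asked whether CIA and healthy mice differed by unlike amounts in the 2 organs. None of 5 tested members passed, and 0% of 4858 genes did, with 409 genes at an unadjusted p below 0.05. Tnfaip3 had an interaction of 1.83 (SE 0.89, unadjusted p = 0.0515, adjusted p = 0.589 by limma). None of the 34 further genes passed, and Ccl2 had their smallest p, with -4.00 (SE 0.97, adjusted p = 0.437), followed by Gadd45b (2.05, adjusted p = 0.486) and Dusp1 (-1.37, adjusted p = 0.494).

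In the other 6 organs CIA mouse S1 was set beside 1 healthy mouse, with no test. Differences are on the log2(UPM + 10) scale after trimmed-mean scaling of the pair, and levels are plain UPM. No difference is printed for a gene listed at 0 in a state, but the counts of genes past 2-fold, of members and of all genes alike, include such genes. Nfkbiz was higher in CIA in lung (67.0 and 197 UPM in healthy and CIA, difference 1.23), muscle (79.2 and 239 UPM, 0.99), joint (271 and 293 UPM, 0.68, and 0.11 on library totals), thymus (46.8 and 79.5 UPM, 0.62) and skin (93.6 and 129 UPM, 0.40). In spleen the difference was 0.17 on this scale and -0.16 on library totals (138 and 122 UPM). In joint the direction rests on the larger of the S1 libraries, which gave 307 UPM, while the smaller one of 70 barcodes gave 94.7 UPM, below the healthy level. The sign was the same under each of the scalings in lung, muscle, thymus and skin.

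**Figure D3:**
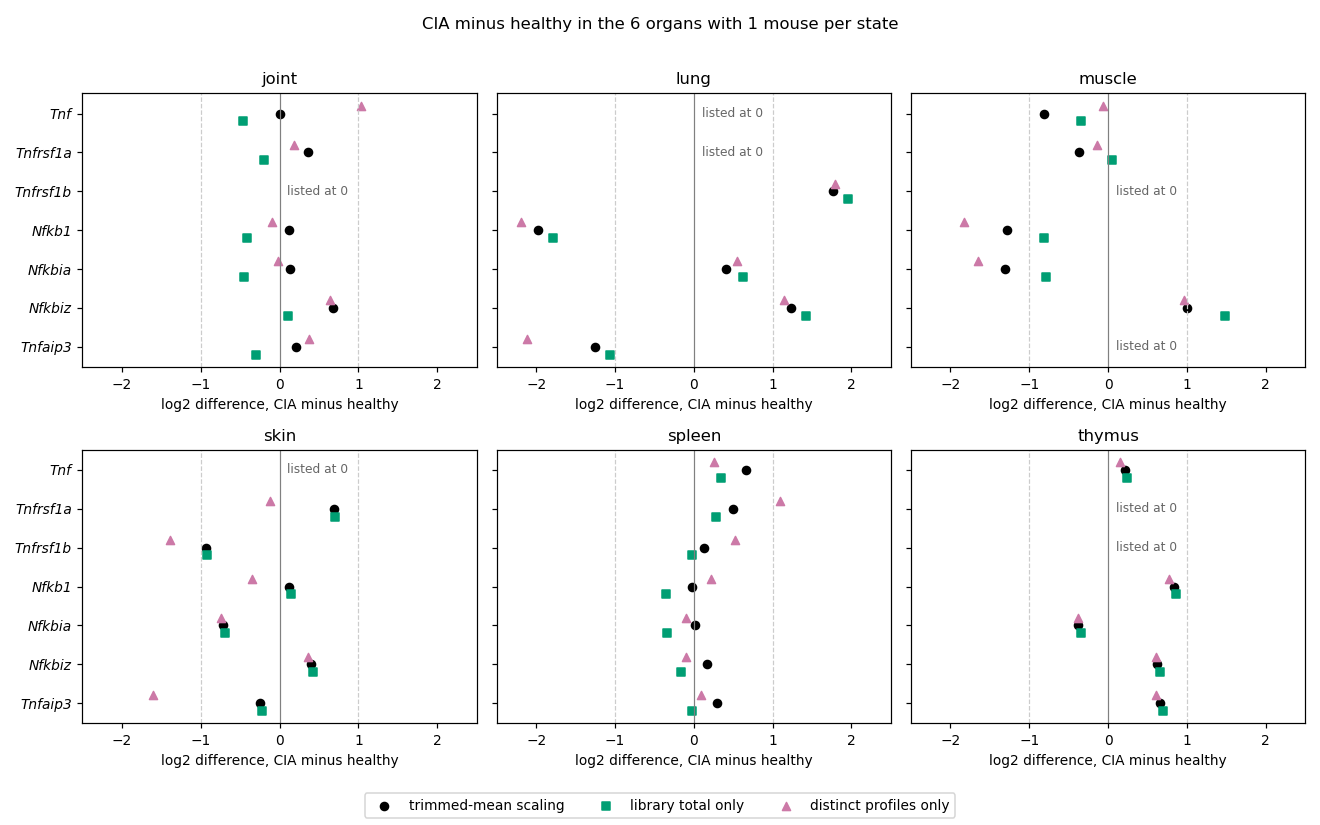
Log2 difference of UPM + 10, CIA minus healthy (x axis), of each gene (y axis) in 6 organs with 1 mouse per state, after trimmed-mean scaling (circles), on library totals (squares) and with each distinct profile taken once (triangles). Nfkbiz lies right of 0 in lung, muscle, joint, thymus and skin with every symbol, where the CIA joint adds 2 libraries at 307 and 94.7 UPM against 271 UPM in healthy, and dashed lines mark a 2-fold difference.

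In joint, the inflamed organ, the other differences were small. Tnfrsf1a differed by 0.36, Tnfaip3 by 0.21, Nfkbia by 0.14, Nfkb1 by 0.12 and Tnf by 0.00, and on library totals these 5 were -0.20, -0.29, -0.46, -0.42 and -0.47. With each distinct profile taken once, Tnf differed by 1.04. The smaller S1 joint library listed Tnf, Nfkb1 and Tnfaip3 at 0 and gave 1035 UPM of Nfkbia, against 2117 UPM in the larger one. None of the 6 members above the filter passed 2-fold, while 16.9% of 5635 genes were higher and 9.83% lower by over 2-fold. Of the genes past 2-fold in joint 63.3% were higher, and 19.6% on library totals, and the median of all genes was 0.25 and -0.32. Among the further genes the joint differences were largest for Cxcl2 (688 and 1290 UPM, 1.49) and Il1b (31.5 and 69.5 UPM, 1.42) upwards, and for Cd83, an activation marker of antigen-presenting cells (66.6 and 15.0 UPM, -1.18), and Nfkbib (100 and 39.5 UPM, -0.64) downwards. The neutrophil marker sum was 62258 UPM with 8 of 10 markers above 0 in healthy joint, and 133271 UPM with 10 of 10 in the larger and 86717 UPM with 8 of 10 in the smaller CIA joint library. The fibroblast sum over 6 markers was 14441 UPM in healthy joint, with 6 above 0, and 22899 and 12140 UPM in the CIA libraries, with 6 and 5 above 0.

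Lung and muscle showed larger differences in both directions. Of 6 members above the filter in lung, 3 were higher in CIA by over 2-fold, Tnfrsf1b (29.3 and 142 UPM, 1.77), Nfkbiz and Tnf, and 2 were lower, Nfkb1 (165 and 40.7 UPM, -1.98) and Tnfaip3 (105 and 44.9 UPM, -1.25). On library totals 7 members were above the filter, 4 of them higher and 2 lower by over 2-fold. Over all 5122 genes 20.1% were higher and 26.9% lower by as much, so that 42.8% of the genes past 2-fold were higher, and 51.8% on library totals. Tnf and Tnfrsf1a were listed at 0 in healthy lung and stood at 125 and 50.8 UPM in CIA lung, and the healthy library held 70 barcodes. Of the genes above 0, 55.2% in healthy and 16.9% in CIA lung never exceeded 1 in a barcode. Il1b (16.8 and 144 UPM, 2.36) and Sod2 (83.8 and 453 UPM, 2.10), which encodes a mitochondrial antioxidant enzyme, led upwards, and Cd83 (-2.40) and Bcl2a1b (-2.01) downwards. The neutrophil marker sum was 467 UPM with 2 of 10 markers above 0 in healthy lung and 17489 UPM with 7 of 10 in CIA lung. B cell markers summed to 444 and 40.7 UPM (5 and 1 of 8 above 0) and macrophage markers to 2081 and 557 UPM (7 and 5 of 7), both lower in CIA lung.

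Of 6 members above the filter in muscle, 3 were lower in CIA by over 2-fold and none higher, and on library totals 1 was lower (Tnfaip3) and 1 higher (Nfkbiz, 1.48). Nfkb1 (137 and 73.3 UPM, -1.29) and Nfkbia (2195 and 1267 UPM, -1.31) were lower, Tnf was 95.7 and 73.3 UPM (-0.81), Tnfrsf1a 42.9 and 44.9 UPM (-0.37), and Tnfaip3 was 82.2 UPM in healthy and listed at 0 in CIA muscle. On library totals Nfkb1 and Nfkbia were at -0.82 and -0.79, within 2-fold, Tnfrsf1a was at 0.05, and Tnf was at -0.06 with each distinct profile taken once. Over all 5707 genes 24.8% were higher and 29.5% lower by over 2-fold, so that 45.7% of the genes past 2-fold were higher, and 67.5% on library totals. Ccl2 (44.1 and 827 UPM, 3.48) and Cxcl1 (50.4 and 326 UPM, 2.00) led upwards, and Rel (-2.73), which encodes the NF-kB subunit c-Rel, and Adam17 (-2.10), which encodes the protease that sheds TNF, downwards. Of 39 further genes above the filter 23 were lower and 5 higher by over 2-fold in muscle (median -1.40), and of 36 on library totals 16 were lower and 6 higher (median -0.89). The neutrophil marker sum was 105341 UPM in healthy and 18658 UPM in CIA muscle, with 9 and 8 of 10 markers above 0, beside the skeletal muscle markers given above. B cell markers summed to 2098 and 130.0 UPM (8 and 3 of 8 above 0) and T cell markers to 785 and 40.2 UPM (7 and 1 of 8), both lower in CIA muscle. Fibroblast markers summed to 496 and 11993 UPM (5 and 6 of 6 above 0) and macrophage markers to 48.3 and 1075 UPM (1 and 6 of 7), both higher in CIA muscle.

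No member above the filter reached 2-fold in skin, spleen or thymus. Over all genes 11.6% were higher and 13.4% lower by 2-fold in skin, 20.6% and 15.1% in spleen (57.8% of the genes past 2-fold were higher, and 36.8% on library totals), and 9.88% and 7.25% in thymus. Tnf was 79.2 UPM in healthy and 103 UPM in CIA spleen (0.66, and 0.26 with each distinct profile taken once), beside a neutrophil marker sum of 4415 and 98117 UPM. In spleen, erythroid markers summed to 519 and 91394 UPM, monocyte markers to 155 and 883 UPM and NK cell markers to 532 and 165 UPM. In thymus Nfkb1 (22.6 and 49.1 UPM, 0.83) and Tnfaip3 (123 and 205 UPM, 0.66) were higher in CIA and Nfkbia (2552 and 2005 UPM, -0.38) lower. In skin Tnfrsf1a was 30.7 and 56.4 UPM (0.69, and -0.12 with each distinct profile taken once), and Nfkbia 1425 and 882 UPM (-0.71). The fibroblast marker sum was 4385 UPM in healthy and 16890 UPM in CIA skin, with 6 of 6 markers above 0 in both. The part of these marker sums in the differences within joint, lung, muscle, skin and spleen was not tested. The further genes with the largest differences were Nfkbib (1.54), Cyld (1.31), Zfp36 (-1.05) and Tnfaip2 (80.5 and 35.9 UPM) in skin. They were Cxcl2 (2.72), Birc2 (2.12), Ccl5 (-2.52) and Ccl4 (-2.19) in spleen, and Otulin (0.63), Adam17 (0.58), Zfp36l1 (-1.52) and Bcl2l1 (-1.23) in thymus.

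To place the genes in cell classes, distinct barcode profiles were clustered on 17 lists of cell type markers, none of which holds a member, and named by those markers. Of 10 named classes 8 had barcodes in more than 1 library, and 42.6% of barcodes stayed unnamed. The genes leading the T cell-like and B cell-like clusters were often not their markers. No doublet caller was run on the smoothed sums, and mixed profiles remain in the classes. The cluster holding 463 of the 542 neutrophil-like barcodes had a fibroblast score of 2.605 beside a neutrophil score of 3.0 (mean log2 fold of the markers over the median cluster, capped at 3), and the fibroblast-like cluster a neutrophil score of 2.018. The monocyte-like cluster had a neutrophil score of 2.124 beside a monocyte score of 2.688, with 3 of 6 markers raised. Its 10 leading genes included Prtn3, Mpo and Ctsg, which are not on its marker list. The levels below are sums over all libraries, with no test, and smoothing can carry transcripts between neighbouring classes of a library.

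Tnf stood at 105 UPM in 542 neutrophil-like barcodes of 8 libraries, 39.5 UPM in monocyte-like, 32.8 UPM in B cell-like, 19.5 UPM in T cell-like and 11.4 UPM in fibroblast-like barcodes. Tnfrsf1a stood at 152 UPM in 338 fibroblast-like barcodes of 6 libraries, 82.3 UPM in neutrophil-like and 46.0 UPM in monocyte-like barcodes, and it was listed at 0 in the 1066 T cell-like and 358 B cell-like barcodes. Most of these came from lymph node (1000 and 325 barcodes), where whole libraries list the gene at 0, so class and organ cannot be told apart for these zeros. When each profile was named from its own markers, without clusters, Tnfrsf1a was 127 UPM in fibroblast-like, 6.36 UPM in T cell-like and 1.38 UPM in B cell-like barcodes. Within CIA joint, Tnf was 72.9 UPM in 201 neutrophil-like and 13.2 UPM in 176 fibroblast-like barcodes, and Tnfrsf1a was 81.2 and 188 UPM.

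**Figure D4:**
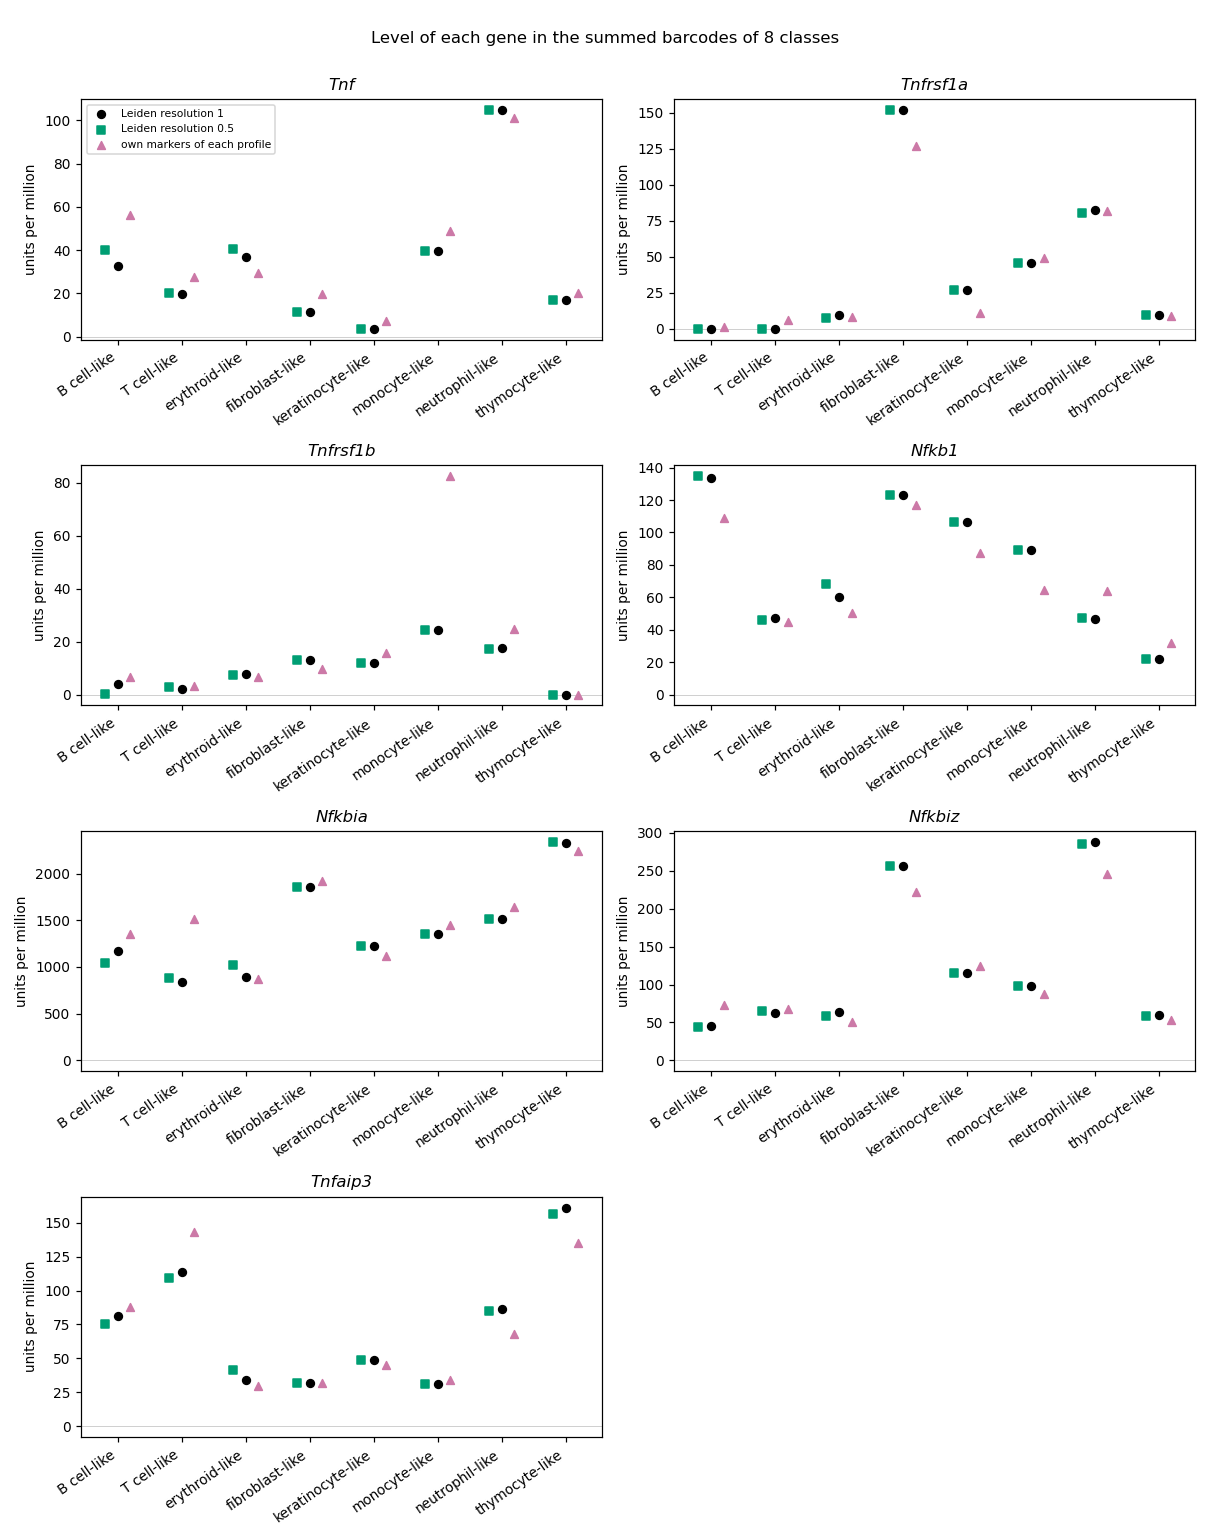
Level of each gene in UPM (y axis) in the summed barcodes of 8 classes (x axis), with clusters at Leiden resolution 1 (circles) and 0.5 (squares) and with each profile named from its own markers (triangles). Tnf is highest in neutrophil-like and Tnfrsf1a in fibroblast-like barcodes with every symbol.

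Among the inhibitors and cofactors, Nfkbiz was highest in neutrophil-like (288 UPM) and fibroblast-like barcodes (256 UPM), and 115 UPM or less in the other 6 classes. In joint it was 485 UPM in CIA and 357 UPM in healthy neutrophil-like barcodes, and 289 UPM in CIA and 360 UPM in healthy fibroblast-like barcodes. Tnfaip3 had another order, with 161 UPM in thymocyte-like, 114 UPM in T cell-like, 86.7 UPM in neutrophil-like and 81.1 UPM in B cell-like barcodes, and 31.4 to 48.8 UPM in the rest. The thymocyte-like barcodes came from 2 libraries and 1000 of the 1066 T cell-like barcodes from lymph node. Class and organ cannot be told apart for these Tnfaip3 levels. Nfkbia was highest in thymocyte-like (2333 UPM) and fibroblast-like barcodes (1859 UPM) and lowest in T cell-like barcodes (836 UPM, and 1509 UPM when profiles were named from their own markers). Nfkb1 was highest in B cell-like barcodes (134 UPM) and lowest in thymocyte-like barcodes (22.0 UPM). Tnfrsf1b stood at 24.4 UPM or less in all 8 classes, and at 82.6 UPM in monocyte-like barcodes when profiles were named from their own markers.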

How the data were processed

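The 30 Seq-Well libraries were read from 1 deposited table. Per the study's methods, the authors aligned reads to GRCm38 with STAR and counted UMIs with Drop-seq tools, and smoothed the pilot libraries over nearest neighbours (k = 12). The submitters' processing notes list bcl2fastq, Picard and STAR, and the builds GRCh38 and mm9. The deposited values are a signal, whole-number sums over a barcode and its neighbours that are not scaled to a total. The 8282 barcodes held 4590 distinct profiles, and 13 barcode sequences occurred in more than 1 library. Rows without a symbol held 3.39% of units.

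Values were summed per mouse and organ and scaled by a trimmed mean of log ratios (30% of ratios and 5% of levels trimmed at each end). Genes averaging 25 UPM or more were tested by limma 3.58.1 in R 4.3.3 on log2(UPM + 10), two-sided, with a mean-variance trend and Benjamini-Hochberg adjustment, and called at an adjusted p below 0.05. The fit was also run on simulated data with known changes, and that outcome is not given here. Members under the filter were compared by exact permutation over mice. Nothing beyond the mouse labels marks separate cultures, and p-values measure the spread between these mice.

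By the numbers in their titles, blood and lymph node of 6 mice come from the same animals. Deviations of the same mouse correlated at -0.28 to 0.18 over genes between both organs, and the pairing by mouse was run as a replicate block. S1 and S6, with 1 organ each, add nothing to that fit.

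Profiles were clustered with scanpy 1.11.5, without a doublet caller. Named were the 7 genes, list genes that passed or else the 3 with the smallest p, the 2 with the largest difference per direction in organs with 1 mouse per state, and the 3 genes most alike in pattern. Members, lists and tests were chosen with earlier results of these data known. Alternatives changed scaling, pseudocount, filter, trend, mice, suffix and duplicates.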

Additional observations from a re-analysis of the deposited data

Results flagged for a closer look

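Of 14 groups of 4 healthy mice (7 genes in blood and lymph node), 1 held a mouse far from the others. A rate of about 1 in 20 chance flags holds for untied values and does not apply here, since the other 3 mice were tied at 0. Tnfrsf1b stood at 27.3 UPM in lymph node of H3 and was listed at 0 in H4, H6 and H7. No member's CIA difference differed between blood and lymph node by the interaction test.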

How the results depend on the processing

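No member passed between CIA and healthy in blood or lymph node, or in the interaction, under any alternative. Tnfaip3 stayed higher in lymph node than in blood under all 18, from 1.14 with a pseudocount of 50 to 3.09 with a pseudocount of 1, and lost its call in 1 of them, without S2. With median-of-ratios scaling 2 members passed there, Tnfaip3 and Nfkbia. With the mouse as a replicate block Tnfaip3 was 1.94 (adjusted p = 0.0234 by limma), 491 genes passed between the organs and 1 in the interaction, and no member's call changed, while the further gene Tnfaip2 lost its call.

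Counts of genes depended on the setting. In blood 6 passed, and 11 with median-of-ratios scaling, 16 with library totals, 0 with a pseudocount of 1 or without the trend (385 and 525 genes at an unadjusted p below 0.05), 23 with a pseudocount of 50 and 12 without a filter. In lymph node 1 passed, and 6 without a filter, 0 without the trend (226 at an unadjusted p below 0.05) and 3 in 2CIA libraries. Between organs 667 passed, and 398 with median-of-ratios scaling, 277 with a pseudocount of 1, 168 without a filter and 391 without the trend. In the interaction 3 passed with a pseudocount of 50. Leaving out a mouse gave 0 to 11 genes in blood, 0 to 7 in lymph node, 103 to 739 between organs and 0 in the interaction, with 0 to 1 members between organs; in blood every left-out mouse moved the count by over 1.5 times (0 without S2, 1 without H3, 2 without S7, 10 without H4, H6 or H7, 11 without S6), in lymph node it was 7 without H3 and 0 without H6, S1 or S7, and between organs 103 without S2, 145 without H4, 301 without H7, 325 without S7 and 431 without S1.

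Uncalled differences that changed sign were Nfkbia in blood (0.27 with library totals, 0.49 in 2CIA libraries, -0.32 to 0.18 without a mouse), Tnfaip3 in lymph node (0.41 in 2CIA libraries, -0.69 to 0.22 without a mouse), and in lymph node Nfkb1 (-0.0079 to 0.49) and Nfkbiz (-1.39 to 0.22) without a mouse. Between organs they were Nfkb1 (-0.045 with median-of-ratios scaling, -0.024 with a pseudocount of 50, -0.27 to 0.26 without a mouse) and Tnf (-0.011 with a pseudocount of 50, -0.083 with the replicate block, -0.18 to 0.57 without a mouse), and in the interaction Nfkbia (-0.012 in 2CIA libraries). Without 1 mouse, uncalled differences that moved by over 1.5 times with the same sign were, in blood, Nfkb1 (0.29 without H3), Nfkbiz (0.31 without S2, 0.75 without H6, 0.81 without S6) and Tnf (-2.04 without S2), in lymph node Nfkbia (0.21 without S7, 0.72 without S2), and between organs Nfkbiz (-0.11 without S2). In the interaction they were Nfkb1 (-1.19 to -0.34), Nfkbia (0.18 to 0.79), Nfkbiz (-2.01 to -0.22) and Tnf (0.071 to 2.29). The cause was not tested. In the 6 organs with 1 mouse per state 17 of 108 alternative values had another sign than the main one. Leaving the erythroid markers out of the totals was chosen after seeing the data.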

Other observations

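Immediate early genes, which respond within minutes to stimulation and also to tissue handling, were followed as a list of 9, all tested. Between lymph node and blood 1 of 9 passed, where 13.7% of all genes tested passed and 2.37% passed lower in lymph node. It was Atf3, at 327 ± 183 UPM in blood and 64.9 ± 34.7 UPM in lymph node (SD, n = 7; difference -2.29, SE 0.39, limma adjusted p = 0.000879), and it passed under all 18 alternatives. The median of the list was -0.11 against 0.40 for all genes. Between CIA and healthy mice none of the 9 passed by limma in either organ. At an unadjusted p below 0.05 there were 3 in blood and 1 in lymph node, against 462 of 4704 and 214 of 5060 genes tested. The median was -0.63 in blood against -0.55 for all genes, and -0.41 in lymph node against 0.09.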
